A study of Mus musculus with 20 samples.

Results

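The comparison described here is that of RAW264.7 cells kept with the bromodomain inhibitor I-BET alone for 14 hours against untreated cells of the same line, and it rests on 4 of the 20 RNA-seq libraries of the series, 2 in each group, across all measured genes. The treated cells received 500 nM I-BET and no RANKL. The untreated cells received neither agent and, by their titles, were taken at hour 0. Their sample names begin with 4, as do those of the 4 hour samples. RAW264.7 is a mouse macrophage line, which the labels call monocyte-derived and whose source they give as bone marrow, and it turns into osteoclasts, the cells that resorb bone, when it is given the cytokine RANKL. The other groups of the series, each of 2 libraries, were I-BET alone at 4 and 24 hours, RANKL alone (50 ng per ml) and both agents together at 4, 14 and 24 hours.

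Libraries were made from poly(A)-selected RNA and held 61207777 and 44127631 counts in I-BET cells at 14 hours and 19051780 and 40202063 counts in untreated cells. Both groups are 1 cell line, and whether the paired libraries of a group are separate cultures is not stated. The p-values thus measure a spread between libraries only, and it was estimated over all 20 libraries of the series. By their titles, untreated cells were sampled at hour 0 alone, so the action of I-BET and the 14 hours in culture cannot be told apart. The second untreated library stood apart in RNA that poly(A) selection normally removes. A list of 6 genes that give RNA without a poly(A) tail or collect reads of ribosomal RNA took 2.14% of its counts, against 0.046% to 0.199% in the other 19 libraries of the series. Of the 5 tested, Rmrp, Rpph1 and Gm26917 were called lower in I-BET cells, and none was called without that library. Results that rest on this library are given with and without it.

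The label of the cells was checked against markers. Csf1r, the receptor of the macrophage growth factor M-CSF, was at 1910 and 2022 CPM in I-BET cells and 2028 and 2189 CPM in untreated cells. CPM are counts scaled to the library total, adjusted by TMM factors. Cd68, a macrophage lysosomal protein, was at 341 and 345 CPM in I-BET cells and 496 and 480 CPM in untreated cells. Both belong to a list of macrophage identity genes that mostly went down. Of its 27 tested members 16 were called lower and none higher, at a median log2 change of -1.19. Of 32 markers of lymphocytes, granulocytes, dendritic, stromal, endothelial, epithelial and red cells, 4 had enough counts to be tested. The summed level of the 4 tested markers was 2.54 and 2.68 CPM in I-BET cells and 2.90 and 3.01 CPM in untreated cells. Markers that were not tested are left out of this sum, and Cd3e, Epcam and Hbb-bt had no count in any of the 4 libraries. Zbtb46, a dendritic cell factor, was called higher (log2 change 1.158, adjusted p = 0.0265; not called in any omission of 1 library) and Siglech, a marker of plasmacytoid dendritic cells, lower (log2 change -3.09, adjusted p = 0.00568; not called without I-BET library 2).

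As background, BET proteins, such as Brd2, Brd3 and the testis form Brdt, bind acetylated lysines of histones through paired bromodomains. They bring the elongation factor P-TEFb, a kinase made of Cdk9 and a cyclin T, to promoters and enhancers, where it releases paused RNA polymerase II. P-TEFb is held inactive by the 7SK RNA with the proteins Hexim1, Larp7 and Mepce. I-BET compounds occupy the bromodomains, and Myc and inflammatory genes of macrophages are known for their sensitivity to such inhibitors.

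Across 16042 genes tested, 849 (5.29%) were higher and 1343 (8.37%) were lower in I-BET cells at an adjusted p under 0.05 (edgeR quasi-likelihood test, Benjamini-Hochberg adjustment over all genes tested), and these are the genes termed called below. These shares, 5.29% higher and 8.37% lower, are the background for the counts of each gene list below in this test against untreated cells. The falls were also the larger changes: 764 called genes fell by more than 2-fold and 185 rose by more than 2-fold. The median log2 change of all tested genes was 0.02. A fit of these 4 libraries alone, without the spread of the other groups, called 218 genes higher and 703 lower. Libraries of the same number deviated together across groups, which this test did not take into account. With the library number as a block, 2318 of the 16042 genes were called higher and 2468 lower. These larger totals are the background for the list counts given with the block. A test on log2 of the deposited RPKM plus 1 covered fewer genes, and RPKM are scaled by the library total without TMM factors. It gave 1243 higher and 797 lower, so the share of rises among the calls was 60.9% there and 38.7% in the count test. The median log2 change of all its genes was 0.0923. Leaving out 1 of the 4 libraries left 364 to 485 genes higher and 745 to 880 lower: 364 and 880 without untreated library 1, 368 and 861 without untreated library 2, 485 and 854 without I-BET library 1, and 443 and 745 without I-BET library 2.

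**Figure D1:**
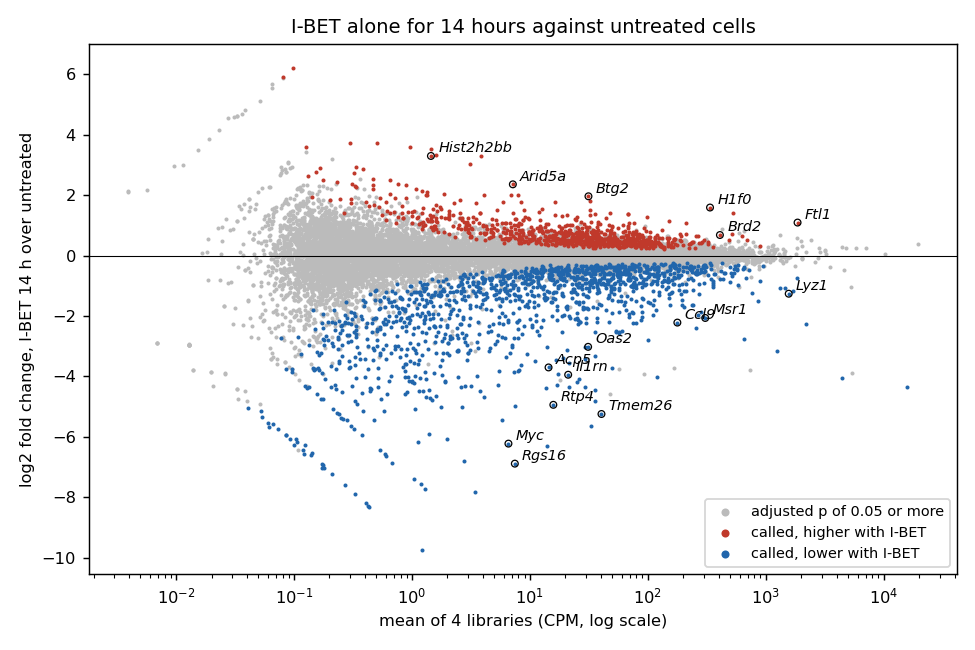
Each point is 1 of the 16042 tested genes, with its mean level over the 4 libraries (CPM, log scale) against its log2 fold change in I-BET cells at 14 hours over untreated cells. Red points are the 849 called higher, blue points the 1343 called lower and grey points the others; large falls such as those of Myc and Rgs16 lie farther from 0 than the rises of named genes.

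Among the BET and P-TEFb genes, 2 of 11 tested rose and 2 fell. Brd2 (chromosome 17, 34112023 to 34122634, mm10) was at 512 and 493 CPM in I-BET cells and 315 and 312 CPM in untreated cells, a log2 change of 0.68 ± 0.08 (SE; adjusted p = 6.63e-05). All values of the treated libraries lay above all untreated ones. Hexim1, the inhibitor of P-TEFb, was at 92.7 and 116 CPM in I-BET cells and 57.9 and 70.3 CPM in untreated cells, a log2 change of 0.70 ± 0.20 (adjusted p = 0.0326). Its call was lost without untreated library 1 (adjusted p = 0.249), untreated library 2 (0.0633) or I-BET library 2 (0.247). The weakly expressed Hexim2 (0.87 and 1.34 CPM in I-BET cells, 2.64 and 2.32 CPM in untreated cells; log2 change -1.17, adjusted p = 0.0216) and Brdt (1.45 and 1.43 CPM in I-BET cells, 2.54 and 2.40 CPM in untreated cells; log2 change -0.77, adjusted p = 0.0421) fell. The call of Hexim2 was lost without either untreated library (adjusted p = 0.118 and 0.0764) or without I-BET library 1 (0.2), and that of Brdt in each of the 4 omissions (0.159 to 0.18). Brd3, Cdk9, Ccnt1, Ccnt2, Mepce and Larp7 had log2 changes from -0.02 to 0.38, none of them called. With the library number as a block, Ccnt1 (adjusted p = 0.0428), Ccnt2 (0.00975) and Mepce (0.00129) were among the members that passed as well, and 6 were higher in place of 2.

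Myc, the transcription factor of growth and ribosome production, fell almost to nothing. It was at 0.16 and 0.18 CPM in I-BET cells and 17.7 and 8.32 CPM in untreated cells (chromosome 15, 61985341 to 61990374, mm10), a log2 change of -6.23 ± 0.49 (adjusted p = 3.21e-06). In the MYC and MAX network, 4 of 12 tested genes were higher and 1, Myc itself, was lower. Mxd1, a partner of Max that opposes Myc, was at 14.7 and 12.5 CPM in I-BET cells and 6.01 and 5.42 CPM in untreated cells (log2 change 1.26 ± 0.17, adjusted p = 0.000231). Mxd4, another such partner, was at 43.2 and 40.7 CPM in I-BET cells and 19.6 and 24.2 CPM in untreated cells (log2 change 0.94, adjusted p = 0.00537). Mxd3 and Mlxip rose as well, with log2 changes of 0.89 and 0.40 (adjusted p = 0.0338 and 0.0227). The call of Mxd3 was lost without untreated library 1 and also without untreated library 2. The list had 2 called rises without either untreated library: Mxd4 was lost without untreated library 1 (adjusted p = 0.0761), and Mlxip without untreated library 2 (0.202) or I-BET library 1 (0.149). Mycn, a relative of Myc named here after its values were seen, was at 717 and 956 CPM in I-BET cells and 432 and 512 CPM in untreated cells, a log2 change of 0.83 with an adjusted p of 0.0503.

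Few targets of Myc were called. Of 43 tested genes of ribosome biogenesis and nucleotide synthesis, none was higher and 2 were lower, and their median log2 change was -0.06. Of all tested genes, 8.37% were called lower. The 2 were Dkc1, the pseudouridine synthase of ribosomal RNA, with 201 and 201 CPM in I-BET cells and 268 and 266 CPM in untreated cells (log2 change -0.41, adjusted p = 0.00766), and Wdr12, a ribosome assembly factor (log2 change -0.29, adjusted p = 0.0147). Dkc1 lost its call without I-BET library 1 (adjusted p = 0.0509) or 2 (0.0536), and Wdr12 in each of the 4 omissions (0.0702 to 0.149). The block called 3 members of the list higher and 11 lower, against 2318 and 2468 of all 16042 genes tested.

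**Figure D2:**
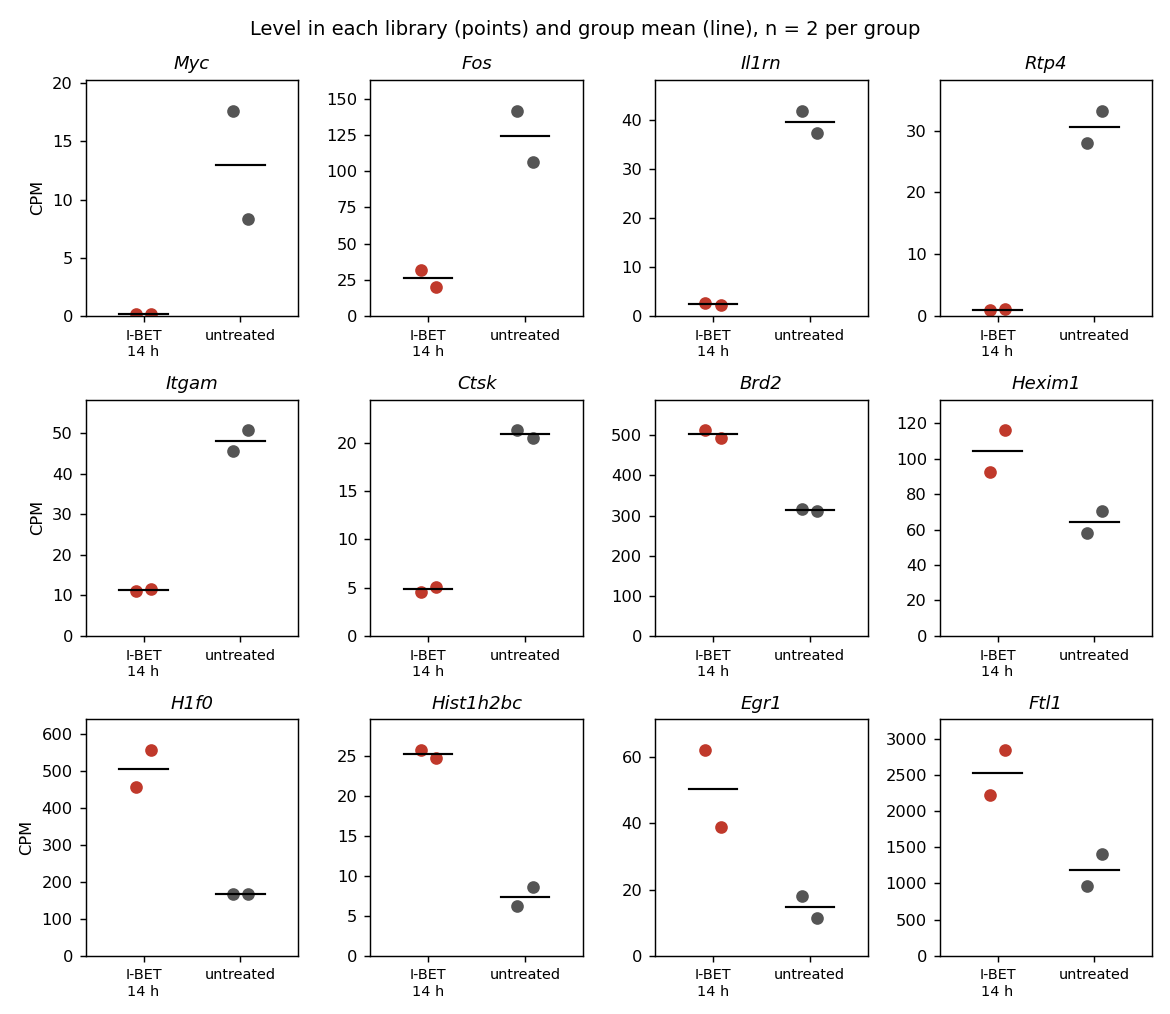
Level (CPM) of 12 named genes in each library, with I-BET cells at 14 hours on the left and untreated cells on the right of each panel; points are the 2 libraries of a group and the line is their mean. The groups do not overlap in any panel, which the choice of the 12 largest rises and falls required of its genes. Myc, Fos, Il1rn, Rtp4, Itgam and Ctsk were lower in I-BET cells, and Brd2, Hexim1, H1f0, Hist1h2bc, Egr1 and Ftl1 were higher.

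Histone genes were the list with the highest median, at a log2 change of 0.53, and 8 of 20 tested members rose. Most replication-dependent histone mRNAs end in a stem-loop with no poly(A) tail, while replacement histones and some clustered genes also give polyadenylated mRNA. H1f0, the linker histone of resting cells, was at 455 and 555 CPM in I-BET cells and 168 and 168 CPM in untreated cells (log2 change 1.59 ± 0.17, adjusted p = 2.72e-05). Hist1h2bc (chromosome 13, 23684199 to 23692488, mm10) was at 25.7 and 24.8 CPM in I-BET cells and 6.21 and 8.57 CPM in untreated cells (log2 change 1.76 ± 0.18, adjusted p = 2.34e-05). Both pairs of groups stood clear of each other. Hist2h2bb, at 2.54 and 2.75 CPM in I-BET cells and 0.21 and 0.30 CPM in untreated cells, had the largest rise of the list (log2 change 3.30, adjusted p = 7.72e-06). Hist2h2be, Hist1h1c, Hist1h4i, Hist3h2a and H3f3b, a gene of the replacement histone H3.3, rose with log2 changes of 0.53 to 1.73. The 3 called falls were of another kind. Hist1h4h was at 0.30 and 0.50 CPM in I-BET cells and at 0.36 and 7.16 CPM in untreated cells, so that its fall rests on the second untreated library. Hist1h2bk and Hist1h3c showed the same arrangement, and none of the 3 falls was called without that library, nor without either I-BET library. Without untreated library 1 the falls numbered 7. How reads were assigned to genes is not stated, so those of near-identical histone genes may be split between copies.

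For the histone genes, 2 members had an entry in the promoter table of RefSeq (build GRCm38.p6, 250 bases before to 50 after the annotated start), and H3f3b is the called one that holds the TATA motif TATAAA. It was at 810.5 and 818 CPM in I-BET cells and 559 and 572 CPM in untreated cells (log2 change 0.53, adjusted p = 0.00223). Its promoter is shown because it is the one histone promoter here with the motif, in capitals, 27 bases upstream of the start site (chr11:116024455-116024754, minus strand, 5′ to 3′).
H3f3b: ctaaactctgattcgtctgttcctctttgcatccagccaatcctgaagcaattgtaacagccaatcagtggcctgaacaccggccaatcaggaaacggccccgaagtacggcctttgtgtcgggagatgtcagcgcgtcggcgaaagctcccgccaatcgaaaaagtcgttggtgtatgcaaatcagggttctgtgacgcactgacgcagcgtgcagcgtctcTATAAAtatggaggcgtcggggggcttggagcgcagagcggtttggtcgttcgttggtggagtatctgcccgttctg
On either strand, 15.7% of the 26994 genes of the table have a promoter that holds TATAAA.

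The 12 largest rises were taken among called genes at a mean level of at least 5 CPM with groups that do not overlap. Their log2 changes were 1.51 to 2.36. Arid5a, an RNA-binding protein that stabilises cytokine mRNAs, was at 10.2 and 13.8 CPM in I-BET cells and 2.38 and 2.29 CPM in untreated cells (log2 change 2.36 ± 0.17, adjusted p = 1.25e-06). Egr1, an early response transcription factor, was at 62.1 and 38.9 CPM in I-BET cells and 17.96 and 11.3 CPM in untreated cells (log2 change 1.80 ± 0.34, adjusted p = 0.00258). Btg2, an antiproliferative cofactor of mRNA deadenylation, was at 43.7 and 56.3 CPM in I-BET cells and 9.73 and 15.7 CPM in untreated cells (log2 change 1.96 ± 0.40, adjusted p = 0.0042). The groups of these genes do not overlap by the rule of choice, and the libraries of a group differed from each other. Also among the 12 were Frmd6, Fmo5, a flavin monooxygenase, Bzrap1, Hist1h2bc, H1f0, Nanos1, a translational repressor, Ahi1, Dock9, an activator of the small GTPase Cdc42, and Trp53inp1, a p53-induced protein. Btg2 lost its call without untreated library 1 (adjusted p = 0.0618). Trp53inp1 lost it without untreated library 1 (0.0645), untreated library 2 (0.0791) or I-BET library 1 (0.109).

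By the same rule, the 12 largest falls had log2 changes of -4.30 to -6.89. Rgs16, which speeds the shut-off of G proteins, was at 0.14 and 0.09 CPM in I-BET cells and 19.9 and 9.64 CPM in untreated cells (log2 change -6.89 ± 0.71, adjusted p = 2.47e-05). Tmem26, a membrane protein, was at 2.76 and 1.29 CPM in I-BET cells and 92.4 and 65.2 CPM in untreated cells (log2 change -5.25 ± 0.43, adjusted p = 3.7e-06). The first untreated library was the higher of the pair in each of these genes, whose groups do not overlap by the rule of choice. Among the others were Myc, Bdh2, a short-chain dehydrogenase, Dner, a Notch-binding membrane protein, Rtp4, an interferon-induced chaperone, Angptl2, Olr1, the receptor of oxidised LDL, Olfml3, Nt5e, which makes adenosine, and Rpph1. Rpph1, the RNA of RNase P, was at 1.36 and 1.23 CPM in I-BET cells and at 3.003 and 126 CPM in untreated cells, and without the second untreated library its log2 change was -1.20 (adjusted p = 0.635). Its call was lost without I-BET library 1 (0.0937) or 2 (0.101) too. Olr1 lost its call without untreated library 1 (0.0532) or I-BET library 2 (0.0799).

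The type I interferon response had the largest share of lower members of the lists examined, with 29 of 32 tested members lower, none higher and a median log2 change of -2.50. Cells keep such genes at a low tone through interferon signalling, and the products sense or block viral RNA. Summed over the tested members, levels were 222.5 and 230.4 CPM in I-BET cells and 770.5 and 809.8 CPM in untreated cells. Among the sensors and effectors, Oas2, which makes the signal that activates RNase L, was at 6.32 and 7.36 CPM in I-BET cells and 55.8 and 55.2 CPM in untreated cells (log2 change -3.02 ± 0.19, adjusted p = 8.21e-07). Ifi44 was at 6.81 and 7.27 CPM in I-BET cells and 87.9 and 96.0 CPM in untreated cells (log2 change -3.71 ± 0.28, adjusted p = 2.41e-06). Rtp4 was at 0.91 and 1.09 CPM in I-BET cells and 28.0 and 33.2 CPM in untreated cells (log2 change -4.94 ± 0.46, adjusted p = 1.15e-05). In each of these genes the libraries of a group lay close together and the groups far apart. Phf11d and Xaf1 fell with log2 changes of -3.45 and -3.82.

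Among the transcription factors of the interferon list, Irf7, the amplifier of the response, was at 5.26 and 7.59 CPM in I-BET cells and 23.9 and 31.5 CPM in untreated cells (log2 change -2.12, adjusted p = 0.0052). Irf9 was at 13.4 and 14.6 CPM in I-BET cells and 46.0 and 47.5 CPM in untreated cells (log2 change -1.74, adjusted p = 3.22e-06). The 3 members that were not called were Stat2 (log2 change 0.30, adjusted p = 0.23), Bst2 (-0.54, 0.512) and Isg20 (-1.46, 0.0764). Ifnb1, the gene of interferon beta, had no count in I-BET cells and 1 count in each untreated library and was not tested. The Oas and Ifit genes have near-identical relatives, so their reads may be split between copies.

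Interferon-stimulated genes are switched on through an element built on 2 GAAA-like cores, searched here as GAAANNGAA on either strand. Of the 33 members found in the count table, 23 had an entry in the promoter table and 12 of these held the motif, against 9.75% of all 26994 genes with a promoter of the same length in the table. A match is a description of the letters in the window and not a measured binding site. The promoter of Ifi44 (chr3:151749861-151750160, minus strand, 5′ to 3′) is given whole because Ifi44 had the lowest p among named members with the motif. The motif is in capitals, and its first base lies 3 bases upstream of the start, so that it spans the start site.
Ifi44: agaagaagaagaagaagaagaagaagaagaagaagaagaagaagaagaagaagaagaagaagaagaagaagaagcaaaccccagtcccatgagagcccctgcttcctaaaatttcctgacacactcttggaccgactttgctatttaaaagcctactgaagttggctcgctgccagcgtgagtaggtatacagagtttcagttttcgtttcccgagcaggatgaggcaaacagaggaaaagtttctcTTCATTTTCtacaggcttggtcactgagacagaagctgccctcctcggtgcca
The members with more than 1 copy of the motif are shown with 16 bases on either side of the first copy, in capitals, so that the shared core can be compared. They lie at chr2:62646343-62646383 (Ifih1), chr5:120777710-120777750 (Oas3), chr19:34640764-34640804 (Ifit1), chr4:156200872-156200912 (Isg15), chr5:120907521-120907561 (Oas1a), chr19:34583358-34583398 (Ifit3) and chr8:71537578-71537618 (Bst2), and Ifit1 and Ifit3 are on the plus strand and the others on the minus strand.
Ifih1: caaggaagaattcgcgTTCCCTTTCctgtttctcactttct
Oas3: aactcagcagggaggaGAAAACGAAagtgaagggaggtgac
Ifit1: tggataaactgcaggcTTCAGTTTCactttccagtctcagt
Isg15: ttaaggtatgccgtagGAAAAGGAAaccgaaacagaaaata
Oas1a: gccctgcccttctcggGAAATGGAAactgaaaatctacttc
Ifit3: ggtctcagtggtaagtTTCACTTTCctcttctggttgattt
Bst2: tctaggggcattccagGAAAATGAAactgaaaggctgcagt
Of these, Ifit3 (log2 change -3.30), Ifit1 (-3.12), Isg15 (-2.88), Oas3 (-2.52), Oas1a (-2.22) and Ifih1 (-1.25) fell, while Bst2 was not called.

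**Figure D3:**
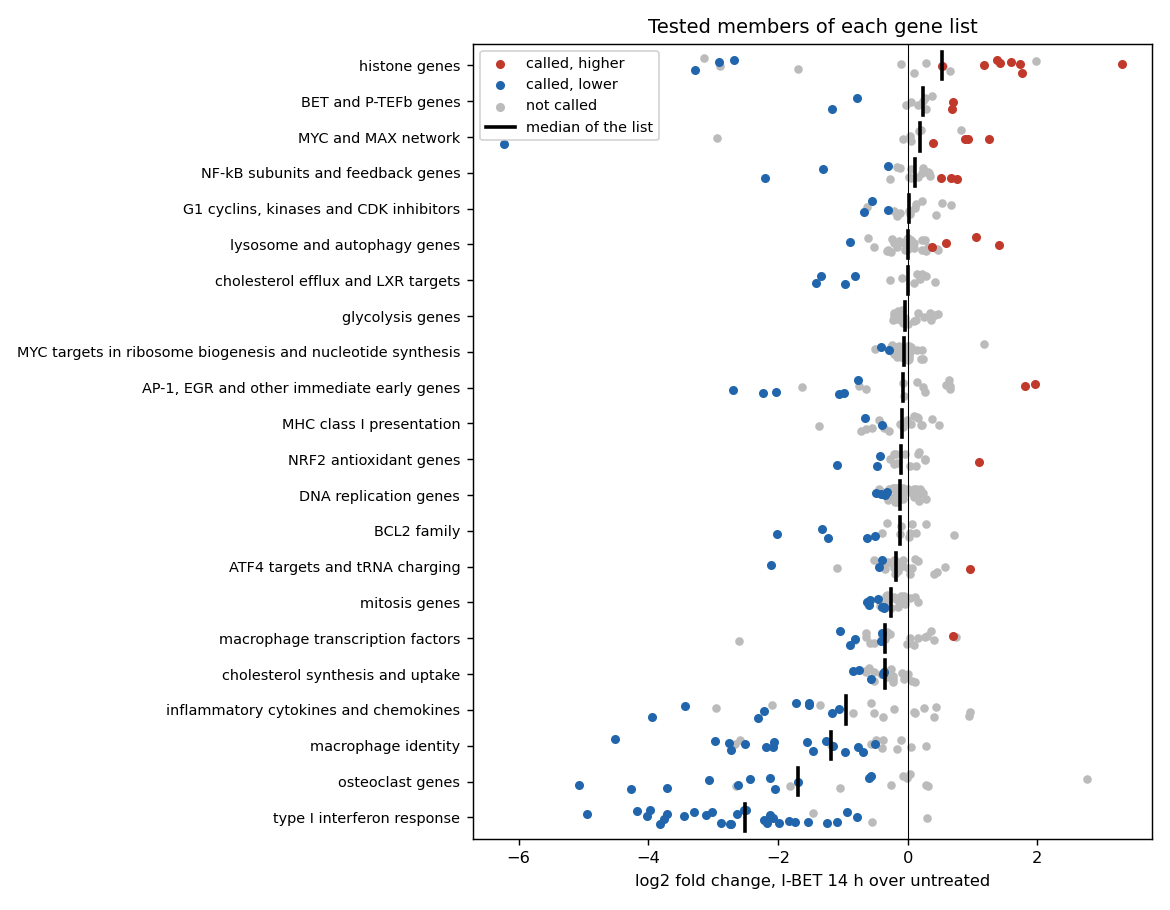
Each point is a tested member of a gene list, placed by its log2 fold change in I-BET cells at 14 hours over untreated cells; red and blue points were called higher and lower, grey points were not called, and the bar is the median of the list. Lists run from the highest median, the histone genes at 0.53, down to the type I interferon response at -2.50.

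Inflammatory cytokines and chemokines fell in part, with 9 of 24 tested members lower, none higher and a median log2 change of -0.95. Il1rn, the natural antagonist of interleukin 1 (chromosome 2, 24336853 to 24351494, mm10), was at 2.76 and 2.36 CPM in I-BET cells and 42.0 and 37.3 CPM in untreated cells (log2 change -3.95 ± 0.16, adjusted p = 2.01e-08). Ccl9, a chemokine of macrophages and osteoclasts, was at 61.7 and 64.0 CPM in I-BET cells and 297 and 289 CPM in untreated cells (log2 change -2.22 ± 0.21, adjusted p = 1.52e-05). Cxcl10, an interferon-induced chemokine that draws T cells, had a log2 change of -2.31 (adjusted p = 4.28e-05), and Cxcl16, a scavenger receptor and chemokine, one of -1.16 (adjusted p = 0.000118). Ptgs2, Spp1, Il18, Il10 and Ccl6 were the other called falls. Tnf, the main inflammatory cytokine of macrophages, was at 43.9 and 32.1 CPM in I-BET cells and 34.8 and 29.2 CPM in untreated cells, with overlapping groups (log2 change 0.25, adjusted p = 0.635). Il6 and Il12b had at most 1 count in the 4 libraries together.

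In the NF-kB list 3 of 18 tested members rose and 3 fell, at a median log2 change of 0.11. Nfkbiz rose, and so did Nfkbia, an inhibitor of the pathway, and Cd83, a surface protein of activated cells. Their log2 changes were 0.77, 0.51 and 0.67 (adjusted p = 0.0115, 0.0417 and 0.0414). Traf1, an adaptor and target of NF-kB, was at 2.52 and 2.16 CPM in I-BET cells and 11.6 and 10.03 CPM in untreated cells (log2 change -2.20, adjusted p = 0.000651). Bcl3 and the subunit Nfkb1 fell as well, with log2 changes of -1.31 and -0.30 (adjusted p = 0.014 and 0.0361). The subunits Rela, Relb, Rel and Nfkb2 had log2 changes from -0.12 to 0.16, none called. Nfkbiz lost its call without untreated library 1 (adjusted p = 0.117) or I-BET library 1 (0.109), Bcl3 without untreated library 1 (0.0862) or I-BET library 2 (0.126), and Nfkb1 (0.107 to 0.193) and Cd83 (0.089 to 0.204) in each omission. The rises of the list numbered 1 without either untreated library and 0 without I-BET library 1, and the falls 1 without untreated library 1 or I-BET library 2.

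Of the 20 immediate early genes tested, 6 fell and 2, Egr1 and Btg2, rose (1 without untreated library 1, 4 with the block). The falls included 3 of the FOS proteins, which pair with JUN proteins to form AP-1. Fos was at 32.1 and 20.3 CPM in I-BET cells and 142 and 106 CPM in untreated cells (log2 change -2.24 ± 0.29, adjusted p = 0.000154). Fosl2 was at 31.2 and 23.3 CPM in I-BET cells and 142 and 82.0 CPM in untreated cells (log2 change -2.03 ± 0.26, adjusted p = 0.000149). Fosl1 fell with a log2 change of -2.69 (adjusted p = 5.25e-05), and Dusp1, a phosphatase of MAP kinases, with one of -0.99 (adjusted p = 0.000551). The JUN genes Jun, Junb and Jund had log2 changes from -0.07 to 0.26, none called.

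Of 27 genes of macrophage identity tested, 16 were lower and none was higher, with a median log2 change of -1.19. In bulk RNA a lower share of cells that carry a transcript and less transcript per cell cannot be told apart. Among receptors for uptake, Msr1, a scavenger receptor, was at 132 and 104 CPM in I-BET cells and 504 and 485 CPM in untreated cells (log2 change -2.07 ± 0.17, adjusted p = 3.79e-06). Cd36, which takes up oxidised lipid, was at 198 and 136 CPM in I-BET cells and 1149 and 1111 CPM in untreated cells (log2 change -2.76, adjusted p = 0.000141). Itgam, the CD11b integrin chain, was at 11.2 and 11.6 CPM in I-BET cells and 45.6 and 50.7 CPM in untreated cells (log2 change -2.08 ± 0.19, adjusted p = 8.16e-06). No treated value of these receptors came near an untreated one. The Fc receptors Fcgr2b, Fcgr1 and Fcgr3 fell with log2 changes of -2.51, -1.55 and -1.47. Lyz1, a lysozyme gene, was at 941 and 897 CPM in I-BET cells and 2318 and 2094 CPM in untreated cells (log2 change -1.26, adjusted p = 8.38e-05). Csf1r, Sirpa, Tlr2, Cd14 and Lyz2 were among the members not called, with log2 changes from -0.56 to 0.05. The count of falls was 10 without untreated library 2 and 10 without I-BET library 1.

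Of 26 transcription factors of macrophages tested, 5 fell and 1 rose, with a median log2 change of -0.34. Stat3, which carries the interleukin 10 signal, was at 87.1 and 79.3 CPM in I-BET cells and 52.9 and 49.8 CPM in untreated cells (log2 change 0.70 ± 0.08, adjusted p = 7.23e-05). Bcl6, a repressor of inflammatory genes, was at 27.8 and 21.03 CPM in I-BET cells and 56.1 and 44.2 CPM in untreated cells (log2 change -1.04 ± 0.17, adjusted p = 0.00102). Stat6 and Tfec fell with log2 changes of -0.39 and -0.89 (adjusted p = 0.00404 and 0.00878), and Irf5 and Nr1h3 were the other falls. Spi1, the PU.1 factor of the myeloid lineage, was at 218 and 234 CPM in I-BET cells and 293 and 302 CPM in untreated cells (log2 change -0.40, adjusted p = 0.0827), and Irf8 and Cebpa were not called. Stat6 lost its call without untreated library 1 (adjusted p = 0.0571) or I-BET library 2 (0.0642), and Tfec without untreated library 2 (0.0733) or I-BET library 2 (0.0894). The falls numbered 3 without untreated library 1 and 2 without untreated library 2 or I-BET library 2, and the block called 13 members lower and 5 higher.

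Untreated RAW264.7 cells already carried transcripts of osteoclast genes, and 11 of 21 tested members were lower in I-BET cells, with none higher and a median log2 change of -1.70. Nfatc1, the master factor of osteoclasts, was at 134 and 95.4 CPM in I-BET cells and 600 and 342 CPM in untreated cells (log2 change -2.04, adjusted p = 0.00276). Tnfrsf11a, the receptor RANK, was at 121 and 68.5 CPM in I-BET cells and 383 and 232 CPM in untreated cells (log2 change -1.70, adjusted p = 0.0108). The groups of both genes stood apart although the untreated libraries differed widely. Among genes of resorption, Acp5, the acid phosphatase TRAP (chromosome 9, 22126731 to 22135746, mm10), was at 2.57 and 1.43 CPM in I-BET cells and 36.0 and 17.5 CPM in untreated cells (log2 change -3.70 ± 0.47, adjusted p = 0.000137). Ctsk, the collagen-cleaving cathepsin K, was at 4.51 and 5.11 CPM in I-BET cells and 21.3 and 20.5 CPM in untreated cells (log2 change -2.12 ± 0.17, adjusted p = 4.02e-06). Among genes of cell fusion, Ocstamp, Dcstamp and Atp6v0d2 fell with log2 changes of -3.07, -2.44 and -4.27. Slc9b2, Src, Cd9 and Car2 were the other falls, and the falls numbered 8 without untreated library 1 or I-BET library 2. Tcirg1, Clcn7 and Ostm1 of the acid secretion machinery, and the adaptors Tyrobp and Fcer1g, had log2 changes from -0.26 to 0.32, none called.

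In the test without the block, part of the cell cycle genes were called lower and none higher. Of 43 DNA replication genes tested, 4 were lower and none higher (median log2 change -0.11), and of 27 mitosis genes 7 were lower and none higher (median -0.25). The replication count is near the share of all tested genes called lower, 8.37%, and the mitosis count is above it. Of the 27 mitosis genes, 24 had a negative log2 change and 3 a positive one. Kif20a, a kinesin of cytokinesis, was at 113 and 108 CPM in I-BET cells and 176 and 156 CPM in untreated cells (log2 change -0.59 ± 0.09, adjusted p = 0.000435). Ccnb2, a mitotic cyclin, was at 81.2 and 101 CPM in I-BET cells and 140 and 143 CPM in untreated cells (log2 change -0.63, adjusted p = 0.00263). Ube2c and Cdk1 fell with log2 changes of -0.57 and -0.45. Among G1 genes, Mdm2, Ccnd1 and Trp53 fell with log2 changes of -0.67, -0.55 and -0.31 (adjusted p = 0.00113, 0.0301 and 0.0381), and no member of 16 rose. Mcm3, Mcm6 and Uhrf1, of the 4 replication genes, had log2 changes of -0.32 to -0.49. At most 1 replication gene was called in any omission of 1 library, and the mitosis falls numbered 4, 3, 3 and 4 without untreated libraries 1 and 2 and I-BET libraries 1 and 2. Of the named genes, Kif20a, Ccnb2 and Mdm2 kept their calls in all 4 omissions, whereas Ube2c lost its call without untreated library 1 (adjusted p = 0.0751) or I-BET library 2 (0.0533), Cdk1 without untreated library 2 (0.094) or I-BET library 1 (0.0665), Ccnd1 without either untreated library (0.179 and 0.0828) or I-BET library 2 (0.262), and Trp53 without untreated library 1 (0.363) or either I-BET library (0.0656 and 0.276). With the block, 13 replication genes were called lower and 3 higher, 13 mitosis genes lower, and 5 G1 genes lower and 3 higher.

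In the BCL2 family, which governs apoptosis, 5 of 15 tested members fell and none rose. Bak1, an effector of cell death, was at 86.8 and 77.5 CPM in I-BET cells and 134 and 119 CPM in untreated cells (log2 change -0.62 ± 0.10, adjusted p = 0.00101). Bcl2a1b and Bcl2a1d, near-identical survival genes whose reads may be split, had log2 changes of -1.23 and -1.32, and Bok, a relative of Bak1, and the survival gene Bcl2l1 had log2 changes of -2.01 and -0.51. Of 23 genes of cholesterol synthesis and uptake 5 were lower, none was higher and the median log2 change was -0.35, with Hmgcs1 at 102 and 92.6 CPM in I-BET cells and 175 and 175 CPM in untreated cells (log2 change -0.85, adjusted p = 0.00156). Nsdhl, a later enzyme of the pathway, had a log2 change of -0.76 (adjusted p = 0.00331). The sterol falls numbered 2 in each omission of 1 library and 13 with the block. Fdft1 (adjusted p 0.0642 to 0.163) and Hsd17b7 (0.0767 to 0.188) lost their calls in all 4 omissions.

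Of 12 targets of the oxysterol receptor LXR, 4 were lower and none was higher, at a median log2 change of -0.001. Abca1, the cholesterol exporter, was at 5.69 and 6.59 CPM in I-BET cells and 18.2 and 12.8 CPM in untreated cells (log2 change -1.33, adjusted p = 0.0107). Scd1, a fatty acid desaturase, had a log2 change of -1.41 (adjusted p = 0.00734), Pltp, a phospholipid transfer protein, one of -0.97 (0.00523) and Nr1h3, the receptor LXR alpha, one of -0.81 (0.0249). None of the 4 was called without I-BET library 1 (adjusted p = 0.0884 for Abca1, 0.0903 for Scd1, 0.0553 for Pltp and 0.237 for Nr1h3). Without untreated library 2, Pltp (0.0516) and Nr1h3 (0.291) were not called, and without untreated library 1 Abca1 was not (0.101).

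Among the stress and degradation lists the changes were few and went both ways. Of all tested genes, 5.29% were called higher and 8.37% lower. Of 27 ATF4 targets, 3 fell and 1 rose: Slc7a11, the cystine importer, was at 10.4 and 7.65 CPM in I-BET cells and 41.3 and 37.1 CPM in untreated cells (log2 change -2.11 ± 0.25, adjusted p = 7.8e-05). Of 16 NRF2 genes, 3 fell and 1 rose, the ferritin light chain gene Ftl1 at 2217 and 2840 CPM in I-BET cells and 969 and 1402 CPM in untreated cells (log2 change 1.09, adjusted p = 0.0225). Of 32 lysosome and autophagy genes, 4 rose and 1 fell: Ulk1, the kinase that starts autophagy, was at 39.7 and 38.04 CPM in I-BET cells and 20.1 and 17.6 CPM in untreated cells (log2 change 1.05 ± 0.09, adjusted p = 8.16e-06). Map1lc3b, which coats autophagosomes, had a log2 change of 0.59 (adjusted p = 0.000214), and Wipi1 and Atp6v0d1 rose with log2 changes of 1.41 and 0.37 (adjusted p = 0.00537 and 0.0167). Slc7a11, Ulk1 and Map1lc3b kept their calls in all 4 omissions of 1 library. Ftl1 lost its call without untreated library 1 (adjusted p = 0.214) or I-BET library 2 (0.159), Wipi1 without untreated library 2 (0.101), and Atp6v0d1 in all 4 omissions (0.0789 to 0.131). The other named members, Nars, Sesn2, Mthfd2, Slc48a1, Sqstm1 and Osgin1, had log2 changes of -0.45, 0.95, -0.39, -0.47, -0.43 and -1.09, and each lost its call in 2 or more omissions. With the block 9 ATF4 targets were lower, 5 NRF2 genes lower and 3 higher, and 8 lysosome genes lower and 9 higher. Of all 16042 genes tested, the block called 2318 higher and 2468 lower.

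Glycolysis held no called gene of 19 in this edgeR test, at a median log2 change of -0.04. Pkm, pyruvate kinase, was at 4850.0 and 5432 CPM in I-BET cells and 4076 and 4587 CPM in untreated cells (log2 change 0.25, adjusted p = 0.43), and Ldha, lactate dehydrogenase, had a log2 change of -0.17 (adjusted p = 0.791). The block called 5 glycolysis genes higher, with Pkm at an adjusted p of 0.0184. Of 20 genes of MHC class I presentation, 2 were lower and none was higher. This count is near the share of all tested genes called lower, 8.37%. Nlrc5, the activator of this pathway, was at 17.2 and 16.2 CPM in I-BET cells and 25.7 and 26.7 CPM in untreated cells (log2 change -0.65 ± 0.10, adjusted p = 0.000845). Psme1, a proteasome activator, had a log2 change of -0.40 (adjusted p = 0.0329) and lost its call in all 4 omissions (0.117 to 0.2). The falls of the list numbered 1 in each omission, and with the block 8 members were lower and 2 higher.

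The changes at 14 hours were set against I-BET alone at 4 and at 24 hours by direct tests, which share the 14 hour libraries with the comparison above. Against 4 hours, 418 genes (2.61%) were higher and 434 (2.71%) were lower at 14 hours. With the block these were 1848 and 1487, and leaving out 1 library gave 130 to 136 higher and 134 to 222 lower. Of the interferon list 15 of 32 were lower at 14 hours than at 4 hours and none was higher, of macrophage identity genes 7 of 27 and of osteoclast genes 5 of 21, again with none higher. Oas2 was at 55.8 and 55.2 CPM untreated, 21.1 and 27.8 CPM at 4 hours, 6.32 and 7.36 CPM at 14 hours and 2.83 and 2.83 CPM at 24 hours. Its level at each time lay below that at the time before (14 against 4 hours: log2 change -1.84, adjusted p = 8.63e-05).

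Brd2 and Hist1h2bc were higher at 4 hours than at 14. Brd2 was at 315 and 312 CPM untreated, 759 and 739 CPM at 4 hours, 512 and 493 CPM at 14 hours and 549 and 555 CPM at 24 hours (14 against 4 hours: log2 change -0.58, adjusted p = 0.00097). Hist1h2bc was at 6.21 and 8.57 CPM untreated, 64.4 and 59.2 CPM at 4 hours, 25.7 and 24.8 CPM at 14 hours and 35.7 and 31.5 CPM at 24 hours (log2 change -1.29, adjusted p = 0.000774). Igf1, a growth factor, was at 49.7 and 49.4 CPM untreated, 37.5 and 29.2 CPM at 4 hours, 3.12 and 2.66 CPM at 14 hours and 1.97 and 1.27 CPM at 24 hours (log2 change -3.52, adjusted p = 3.57e-06). At a mean of at least 5 CPM over the 4 libraries compared, the largest falls from 4 to 14 hours among genes also called against untreated cells included those of Olr1, Igf1 and Angptl2, with log2 changes of -4.57, -3.52 and -3.47. That of Olr1 was not called without I-BET 4 hour library 1 (adjusted p = 0.113) or without either 14 hour library (0.077 and 0.143). Rises in the same sense were led by Rcsd1, an actin capping regulator, with a log2 change of 2.34 (adjusted p = 0.0029, and 0.0531 without I-BET 4 hour library 1), Cd83 with 1.67, Ptplad2 with 1.42 and Acy1, an aminoacylase, with 1.41.

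**Figure D4:**
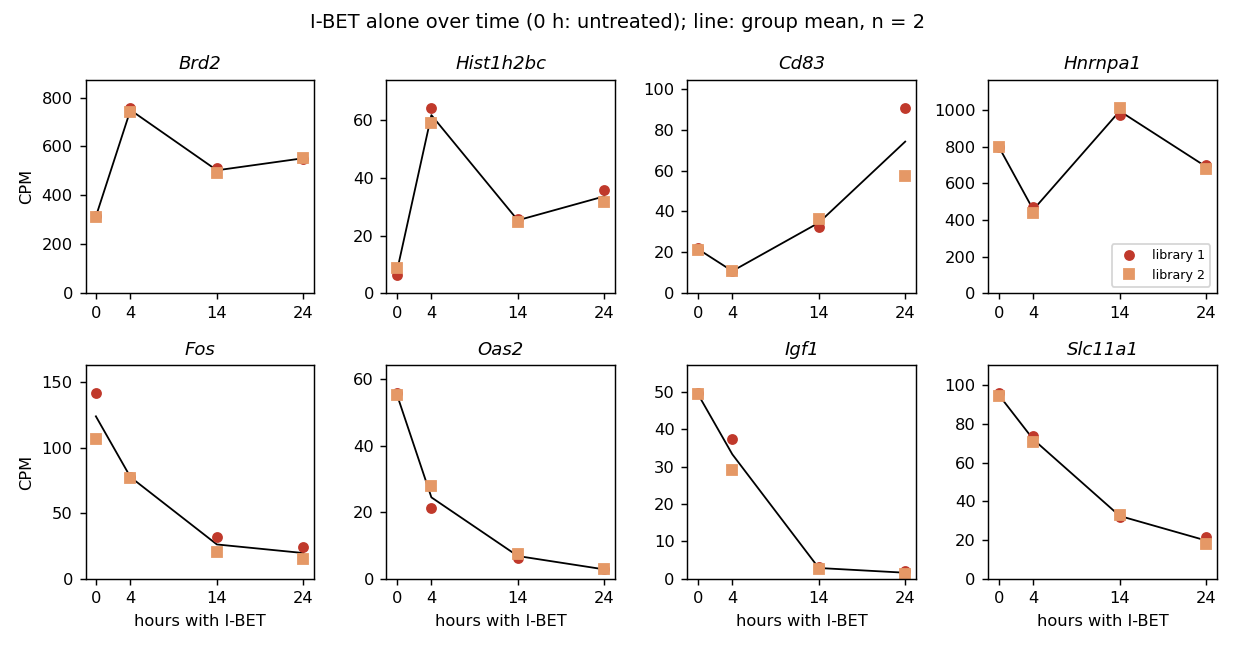
Level (CPM) of 8 genes in cells with I-BET alone over time in hours, with untreated cells at 0; symbols are the 2 libraries of a time and the line joins their means. Oas2, Igf1, Fos and Slc11a1 fall along the course, Brd2 and Hist1h2bc are highest at 4 hours, and Hnrnpa1 and Cd83 are lowest at 4 hours.

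Few genes separated 14 from 24 hours: 5 (0.0312%) were higher and 1 (0.00623%) was lower at 14 hours by edgeR, all at an adjusted p of 0.0463, while 1061 had an unadjusted p under 0.05. The higher ones were Oas2, Spink5, Slc11a1, Adcy2 and Hnrnpa1, and the lower one Mt1. Slc11a1, the phagosomal metal transporter, was at 31.9 and 33.0 CPM at 14 hours and 21.4 and 18.1 CPM at 24 hours (log2 change 0.72), and Hnrnpa1, a splicing factor, was at 977 and 1015 CPM at 14 hours and 703 and 680 CPM at 24 hours (log2 change 0.53). Adcy2, an adenylyl cyclase, was at 7.73 and 6.93 CPM at 14 hours and 4.36 and 3.47 CPM at 24 hours (log2 change 0.90). None of the 6 was called when any 1 of the 4 libraries was left out. The block called 176 higher and 223 lower, DESeq2 65 and 70.

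The same treated cells were also set against cells with RANKL alone for 14 hours, which share their time in culture. Of the genes tested, 2460 (15.3%) were higher and 2492 (15.5%) lower in I-BET cells than in RANKL cells, and 3799 and 4101 with the block. Myc was at 0.16 and 0.18 CPM in I-BET cells and 236 and 233 CPM in RANKL cells, with 17.7 and 8.32 CPM in untreated cells (I-BET over RANKL: log2 change -10.42 ± 0.51, adjusted p = 1.69e-08). Of the 43 genes of ribosome biogenesis and nucleotide synthesis, 36 were lower in I-BET cells than in RANKL cells and none was higher, at a median log2 change of -0.61, and 22 of 43 replication genes were lower. For the same 43 ribosome genes the median against untreated cells was -0.06. Of the 36 members of that list with a promoter in the table, 10 hold the E-box CACGTG, the letters that Myc and Max bind, against 8.09% of all genes of the promoter table. Neither Dkc1 nor Wdr12 is among the 10.

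Osteoclast genes differed between the I-BET and RANKL cells in 16 of 21 tested members, 12 lower and 4 higher in I-BET cells. Acp5 was at 2.57 and 1.43 CPM in I-BET cells, 111 and 95.3 CPM in RANKL cells and 36.0 and 17.5 CPM in untreated cells (I-BET over RANKL: log2 change -5.66, adjusted p = 1.93e-06). Of macrophage identity genes, 9 of 27 were higher and 5 lower in I-BET cells than in RANKL cells. Of all tested genes, 15.3% were higher and 15.5% lower in this comparison, and the 5 falls are near that share. Irf8, a macrophage factor named after its values were seen, was not called against untreated cells but was higher than in RANKL cells, with a log2 change of 3.16 (adjusted p = 9.72e-06). Of 20 histone genes 10 were higher and none was lower in I-BET cells than in RANKL cells.

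Among genes called in both comparisons and at a mean of at least 5 CPM over the 4 libraries compared, the largest differences from RANKL cells were in Rcsd1, Abcd2, Btg2 and Dusp6 on the higher side. Rcsd1 was at 15.8 and 19.4 CPM in I-BET cells, 0.54 and 0.29 CPM in RANKL cells and 5.02 and 7.77 CPM in untreated cells (I-BET over RANKL: log2 change 5.39, adjusted p = 1.83e-06). Abcd2, a peroxisomal fatty acid transporter, had 15.8 and 15.7 CPM in I-BET cells, 0.785 and 0.94 CPM in RANKL cells and 6.99 and 9.67 CPM in untreated cells. In these genes the untreated level lay between those of the I-BET and the RANKL cells. Against untreated cells, Rcsd1 and Dusp6 each lost the call in 2 of the 4 omissions (adjusted p up to 0.173 and 0.129) and Rab15 in all 4 (0.0545 to 0.167). On the lower side were Myc, Tnc, Rgs16 and Rab15. Tnc, the matrix protein tenascin C, had 1 count in the I-BET libraries together and 1219 in the RANKL libraries. Per TMM-scaled library total, the ratio of RANKL over I-BET was 1360.0 (95% interval 244 to 53800.0 for counting error only). Rab15, a small GTPase, had 2 counts in the I-BET libraries and 1090 in the RANKL libraries, a ratio of 608 (168 to 5030.0). Against untreated cells the same ratios, untreated over I-BET, were 223 (39.2 to 8870.0) for Tnc and 19.4 (4.71 to 171) for Rab15.

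**Figure D5:**
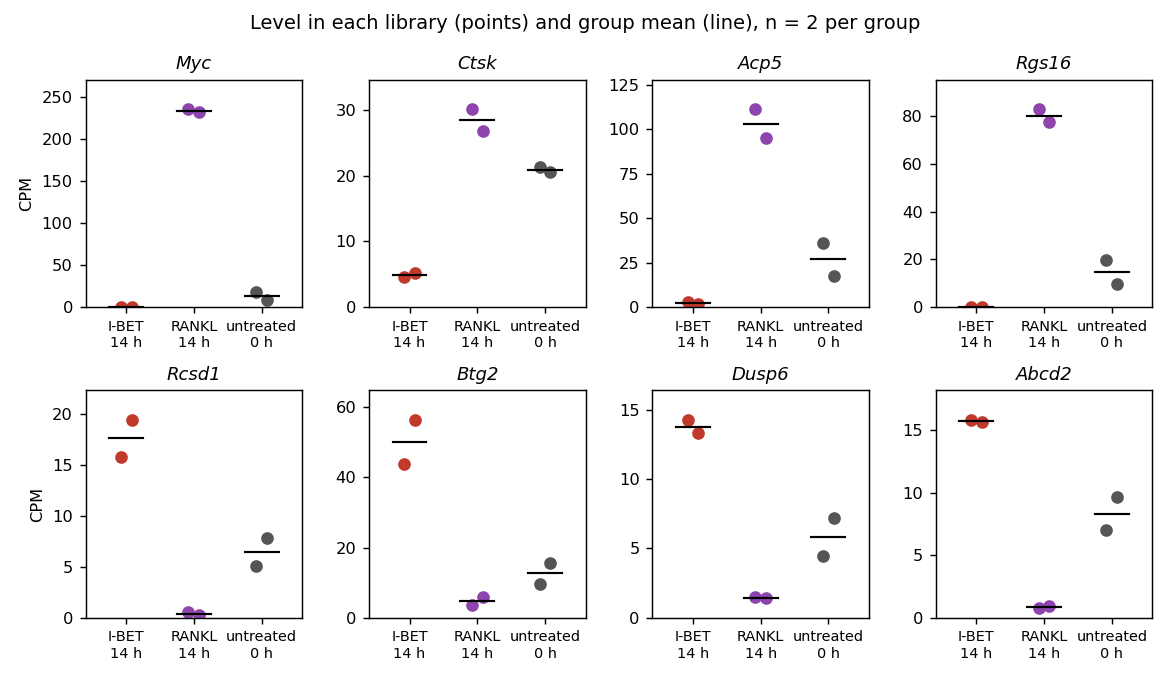
Level (CPM) of 8 genes in cells with I-BET alone at 14 hours, cells with RANKL alone at 14 hours and untreated cells; points are the 2 libraries of a group and the line is their mean. In all 8 genes the untreated cells lie between the other groups: Myc, Ctsk, Acp5 and Rgs16 are lowest with I-BET, and Rcsd1, Btg2, Dusp6 and Abcd2 are lowest with RANKL.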

How the data were processed

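The authors deposited read counts per gene and RPKM for 20 libraries. Per the submitters' processing notes they used FastQC, STAR 2.5.3a and DESeq2 1.16.1 with GRCm38 (mm10); which counting tool and strand setting they used is not stated, so values of overlapping and antisense genes are uncertain. The deposited RPKM are the same counts rescaled, with 1 factor per gene, and are not independent of them. The RPKM file named 42745 of 50686 genes, and a reference table of gene names another 7915. Library totals ran from 19051780 to 62313792 counts.

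Counts were analysed with edgeR 4.0.16 under R 4.3.3. Genes were kept by filterByExpr (16042), scaled by TMM and fitted with 1 mean per group over all 20 libraries, leaving 10 residual degrees of freedom. Tests were robust quasi-likelihood ones with Benjamini-Hochberg adjustment per comparison, called under 0.05. CPM are TMM-scaled and relative to the library. The SE is the size of the log2 change divided by the square root of F. Intervals of count ratios are exact, at 95%. The fits were checked on simulated data. Alternatives used DESeq2 1.42.0, limma 3.58.1 on log2 RPKM, other factors and filters, the library number as a block, and omission of a library or of RNA without a poly(A) tail; figures used matplotlib 3.10.9.

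Libraries of the same number deviated together in all 45 pairs of groups (correlation 0.22 to 0.60). Between the I-BET 14 hour and untreated groups the correlation was 0.32. The numbers thus pair the samples, and the labels do not say what a number shares. The main test did not use this pairing, so its SE and adjusted p count the shared deviation as spread. The common spread (biological coefficient of variation) was 0.162 in the main fit and 0.075 with the block. Genes were named by rule: the BET and P-TEFb genes and Myc; the 12 largest called rises and falls at a mean of at least 5 CPM with groups that do not overlap; up to 4 called members of each list by lowest p, or its 2 highest expressed where under 2 were called; and the 4 largest differences in each direct comparison. This gave 121 genes. Other list members were named after their values were seen. The comparison, lists and members were chosen with earlier results of these data known. Motif windows are from RefSeq (GRCm38.p6); which windows to print was also chosen after values were seen. A few named genes are not reported here.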

Additional observations from a re-analysis of the deposited data

Results flagged for a closer look

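Some genes called against untreated cells also differed between 14 hours of I-BET and another time of the same treatment by a direct edgeR quasi-likelihood test, which is what singled them out. That test and the one against untreated cells share the I-BET 14 hour libraries. From 4 to 14 hours the log2 differences (14 minus 4 hours) were 2.34 for Rcsd1, 1.67 for Cd83, 1.42 for Ptplad2 and 1.41 for Acy1. They were -4.57 for Olr1, -3.52 for Igf1 and -3.47 for Angptl2. Between 14 and 24 hours (14 minus 24 hours) they were 0.90 for Adcy2, 0.72 for Slc11a1 and 0.53 for Hnrnpa1. Cd83 was at 22.3 and 21.1 CPM untreated, 10.7 and 10.9 CPM at 4 hours, 32.6 and 36.4 CPM at 14 hours and 90.9 and 57.5 CPM at 24 hours, below the untreated level at 4 hours and above it later. Hnrnpa1 was likewise below the untreated level at 4 hours and above it at 14 hours. Against untreated cells, the calls of Cd83 (adjusted p 0.089 to 0.204) and Hnrnpa1 (0.0626 to 0.132) were lost in all 4 omissions of 1 library, that of Rcsd1 without untreated library 1 (0.173) or I-BET library 2 (0.111), that of Ptplad2 without untreated library 1 (0.064) or I-BET library 1 (0.0529), and that of Adcy2 without untreated library 1 (0.0563) or I-BET library 2 (0.0832). Groups of 2 libraries are too small to test a single library for standing apart.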

How the results depend on the processing

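Of 109 genes named against untreated cells 100 were called, and 60 of these kept their call in all 4 omissions of 1 library (70 and 76 without untreated libraries 1 and 2, 73 and 74 without I-BET libraries 1 and 2). All 100 kept it with RLE factors, with a filter of at least 1 CPM in 2 libraries, with DESeq2 and with the replicate block; 86 kept it without a filter, 68 in a fit of these libraries alone, and 84 of the 95 with a value on RPKM. The replicate block gave 2318 higher and 2468 lower against untreated cells, and without untreated library 2, an alternative chosen after seeing the data, 1349 higher. The fit of these libraries alone gave 218 higher and 703 lower. RPKM plus 1 and plus 0.1 gave 797 and 794 lower, and plus 0.1 put the median of all genes at 0.109. Omitting a library gave 364 to 485 higher and 745 to 880 lower. Leaving out 5 genes of ribosomal RNA, also chosen after seeing the data, gave 821 higher and 1333 lower.

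Against I-BET at 4 hours, the block gave 1848 higher and 1487 lower, DESeq2 737 and 652, the libraries alone 30 and 79, and RPKM plus 1 and plus 0.1 gave 263 and 246 higher; omissions gave 130 to 136 higher and 134 to 222 lower. Against 24 hours, the block gave 176 higher and 223 lower, DESeq2 65 and 70, no filter 60 and 81, and the CPM filter 3 lower; RLE factors, the libraries alone, both RPKM tests and all omissions gave 0 and 0. Against RANKL at 14 hours, the block gave 3799 higher and 4101 lower and the libraries alone 1446 and 1292. Signs turned for Cdk9, Brd3 and Ldha, none of them called. Omissions gave log2 changes of -0.012 (without I-BET library 2) to 0.31 for Cdk9, -0.14 to 0.093 (without I-BET library 2, as without untreated library 1) for Brd3 and -0.41 to 0.036 (without I-BET library 1) for Ldha; Brd3 was at 0.065 on RPKM plus 1 and 0.069 on RPKM plus 0.1. Among list counts, DESeq2 called 6 MYC targets, 7 replication genes, 6 ATF4 targets, 9 sterol genes and 5 histone genes lower, and the CPM filter 6 replication genes, 5 ATF4 targets, 9 sterol genes and 1 histone gene. Of all genes tested, DESeq2 called 1590 of 16042 lower and the CPM filter 1317 of 12260. Causes were not tested. Beside the changes given in the report, the block changed no other call of a named gene. With 2 libraries a group, small changes such as those of the cell cycle genes are at the limit of detection of the test without the block.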
